A study of Homo sapiens with 36 samples.

Results

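EWS-FLI1, the fusion of EWSR1 and FLI1 that drives most Ewing sarcomas, switches on a set of genes through binding at GGAA repeats and at ETS motifs. Of that set, 10 genes were followed here, picked by symbol: the transcription regulators NR0B1, NKX2-2 and HOXD13, the Polycomb genes EZH2 and PHF19, the membrane protein gene STEAP1, the kinase gene PRKCB, the lipase genes LIPI and ABHD6, and TNFAIP6, which encodes a secreted protein. They had 21 of the 47323 probes of the array, and 19 of the 19738 probes that were detected on at least 3 arrays at a detection p below 0.01. No probe was paired with NR0B1 in the annotation used, and it was not analysed here, which left 9 of the 20046 genes with a probe. A probe of STEAP1, ILMN_2244631, and a probe of TNFAIP6, ILMN_2123217, were detected on 0 of 36 arrays, and the other probes of those genes were detected.

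Total RNA came from TC32, an established Ewing sarcoma cell line, 48 h after transfection at 20 nM, with 3 arrays in each group. SUPT6H was silenced with the siRNAs A1, A3 and Q3, SF3B1 with A2, A3 and Q3, and HNRNPH1 with A2, A3 and Q3, all in the same line with no other allele or agent named. The negative control siRNA, siNeg, had 6 arrays, of which replicates 1 to 3 were the controls for siSUPT6H and siSF3B1 and replicates 4 to 6 those for siHNRNPH1. The 3 arrays called Untreated carried the same 20 nM in their labels. They were compared with siNeg replicates 1 to 3, and with the siRNA arrays only as an alternative control. Nothing in the labels says that the arrays of a group came from separate cultures, so all p-values measure the spread between these arrays, which may be technical.

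As background, SUPT6H is a histone chaperone that travels with RNA polymerase II, and SF3B1 is a core part of the U2 snRNP, the spliceosome particle that recognises the branch point of introns. HNRNPH1 binds G-rich RNA and directs splice site choice, and in Ewing sarcoma cells whose fusion keeps an out-of-frame EWSR1 exon it is known for removing that exon from the fusion transcript. The activated targets are known for holding the tumour cells in an undifferentiated, dividing state. NKX2-2 and NR0B1 are needed for the transformed growth of these cells, and EZH2 adds a repressive methyl mark to histone H3.

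Levels below are normalised log2 intensities of a probe, and changes are differences of group means on that scale, with the siRNA arrays minus their own siNeg arrays. A probe was called where limma's adjusted p over all 19738 probes was below 0.05. In bulk RNA, fewer cells that express a gene and less RNA per cell cannot be told apart. The targeted genes were lower in the arrays labelled for them: SUPT6H changed by -1.77 with siSUPT6H, SF3B1 by -1.29 and -1.98 on its 2 probes with siSF3B1, and HNRNPH1 by -1.35 and -1.24 with siHNRNPH1. SUPT6H was detected on 5 of 9 siSUPT6H arrays and was at least 3.89-fold lower with A1, where it was detected on 0 of 3, and the second SF3B1 probe was detected on 5 of 9 siSF3B1 arrays. SUPT6H also fell with siSF3B1, by 1.14, and with siHNRNPH1, by 0.78. With siSUPT6H both HNRNPH1 probes fell, by 0.59 and 0.74, and SF3B1 ILMN_1674780 fell by 0.38. Of the Ewing sarcoma markers with a probe, CD99, NKX2-2 and BCL11B were detected on 36 arrays and PAX7 on 21. Of 19 markers of epithelial, blood, muscle and endothelial cells with a probe, 14 were detected on fewer than 3 arrays, among them CDH1, PTPRC, CD3E, MYOD1 and VWF on 0. The number of detected probes was 13106 to 14853 on the siSF3B1 arrays and 15319 to 16295 on the siNeg arrays, and its part in the results was not tested.

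The activated targets did not move as a block. The 19 member probes read 9 genes, PRKCB with 5 probes and EZH2, PHF19 and STEAP1 with 3 each. Counts of probes are therefore not counts of separate genes, and calls with 1 probe per gene are given in the last section. Of the 19 member probes, 12 were called with siSUPT6H, 5 higher and 7 lower, where 40.4% of all probes were called, 20.6% higher and 19.8% lower. With the siRNA as a random block, which lets the arrays of one siRNA share error, 7 member probes and 3190 of all probes were called. With siSF3B1 17 were called, 6 higher and 11 lower, against 56.7% of all probes, 26.4% higher and 30.3% lower, and with the random block 13 member probes and 6637 of all probes were. With siHNRNPH1 12 were called, 3 higher and 9 lower, against 37.8% of all probes, 17.8% higher and 20.1% lower, and with the random block 9 member probes and 2442 of all probes were. The median change of the 19 probes was 0.01 with siSUPT6H, where that of all probes was 0.00, and -0.35 with siSF3B1 and -0.20 with siHNRNPH1, where those of all probes were -0.01 and -0.02. In 3 member probes a call was lower with one target and higher with another, as in 13.8% of all probes. No member probe was called higher with all 3 targets, as 4.16% of all probes were, and 5 were called lower with all 3, as 6.73% of all probes were. Those 5 were the probe of ABHD6, the probe of TNFAIP6 and the 3 probes of EZH2. With the random block 3 of them were, ABHD6, TNFAIP6 and EZH2 ILMN_1652913, and the share of all probes was not counted there.

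**Figure D1:**
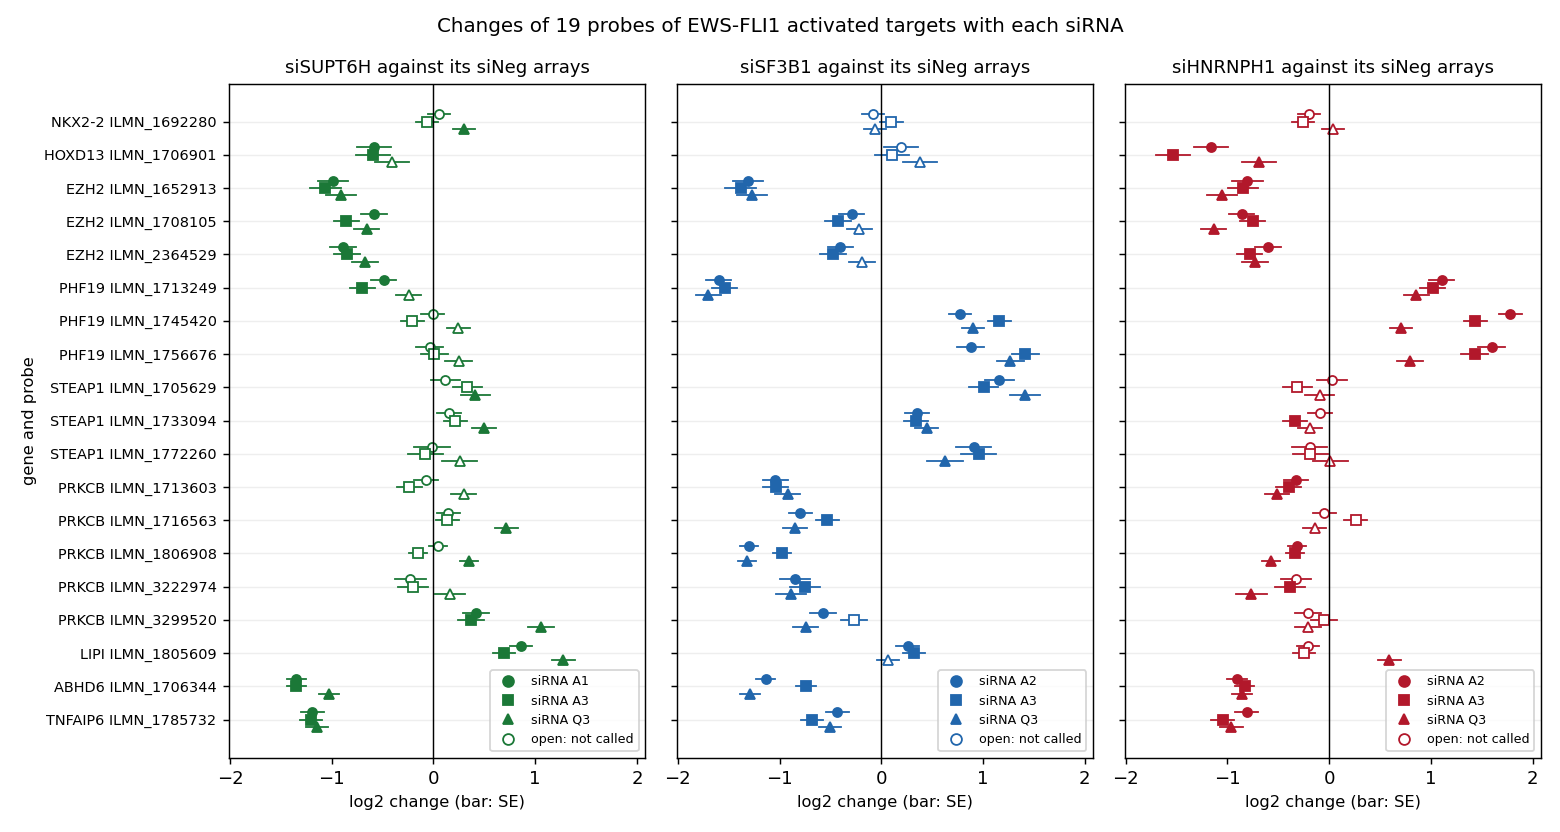
Change on the log2 scale of each member probe (rows) with each of the 9 siRNAs against the siNeg arrays of its own control set, with bars for the standard error and open points for changes that were not called. ABHD6, TNFAIP6 and EZH2 lie below 0 with every siRNA, while PHF19, PRKCB, STEAP1, LIPI and HOXD13 differ between targets.

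The control arrays set a limit on these comparisons. Between the siNeg arrays 4 to 6 and 1 to 3, 9 of the 19 member probes were called, where 34.7% of all probes were. LIPI was lower in replicates 4 to 6 by -1.12, PRKCB ILMN_1713603 by -1.09 and EZH2 ILMN_1652913 by -0.99, whereas NKX2-2 was higher by 0.58 and PHF19 ILMN_1756676 by 0.62. ABHD6 and TNFAIP6 differed by -0.04 and -0.21 and were not called. The control set and siHNRNPH1 cannot be told apart in levels, so each change uses the arrays of its own set. Between siNeg replicates 1 to 3 and Untreated, 2 member probes were called, EZH2 ILMN_1652913 at 0.51 (adjusted p = 0.0294) and PHF19 ILMN_1713249 at 0.42 (adjusted p = 0.0297), both higher with siNeg, where 5.52% of all probes were called and 2.27% were called higher. Under a scaling by the median only, without quantile normalization, 1 member probe was called in that comparison.

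Of the transcription regulators, NKX2-2 was not called with any target and HOXD13 fell with SUPT6H and HNRNPH1 siRNAs. NKX2-2, a homeobox factor of the developing spinal cord and pancreas that represses genes in Ewing sarcoma cells, had levels of 9.60, 9.72 and 9.76 on siNeg arrays 1 to 3. Its levels ran from 9.52 to 10.08 with siSUPT6H (median 9.79) and from 9.50 to 9.85 with siSF3B1 (median 9.71), and both ranges covered those of siNeg. On siNeg arrays 4 to 6 it read 10.21, 10.22 and 10.40, and with siHNRNPH1 9.83 to 10.41 (median 10.09), again with overlap. The changes were 0.10 with siSUPT6H (95% interval -0.08 to 0.28, adjusted p = 0.415), -0.02 with siSF3B1 (-0.19 to 0.16, adjusted p = 0.898) and -0.14 with siHNRNPH1 (-0.31 to 0.04, adjusted p = 0.238). Among single siRNAs only siSUPT6H Q3 gave a call, at 0.30 (adjusted p = 0.0254). With the median scaling alone, NKX2-2 was called higher with siSF3B1, at 0.41, and lower with siHNRNPH1, at -0.26.

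HOXD13, a posterior homeobox factor of the limb bud and genital region, read 7.67, 7.94 and 8.04 on siNeg arrays 1 to 3 and 7.21 to 7.53 (median 7.35) with siSUPT6H. All 9 siSUPT6H arrays were below all 3 siNeg arrays, at a change of -0.53 (SE 0.14, adjusted p = 0.00129), or 69.4% of the control level. With siSF3B1 it read 7.75 to 8.38 (median 8.10), overlapping siNeg, and its change of 0.23 was not called (adjusted p = 0.153). On siNeg arrays 4 to 6 HOXD13 read 8.04, 8.06 and 8.25, and with siHNRNPH1 6.33 to 7.75 (median 6.90). All 9 of those arrays were lower than siNeg, at a change of -1.13 (SE 0.14, adjusted p = 1.47e-09), or 45.7% of control. The 3 siRNAs against HNRNPH1 gave -1.16, -1.54 and -0.69 and differed from each other (moderated F test, adjusted p = 0.000265). The difference between targets was called for all 3 pairs, at -0.75 for siSUPT6H minus siSF3B1, 0.60 for siSUPT6H minus siHNRNPH1 and 1.36 for siSF3B1 minus siHNRNPH1, of which that between siSUPT6H and siHNRNPH1 lost its call with the random block (adjusted p = 0.499). The call with siSUPT6H was lost when the siRNA was treated as a random block (adjusted p = 0.158), and with median scaling the siSF3B1 change of 0.39 was called.

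The HOXD cluster around HOXD13 holds genes that are known to be set by Polycomb marks. Of its 11 listed genes and neighbours 8 were measured, HOXD13 among them. Of the 8, 5 fell with siSUPT6H, 5 with siSF3B1 and 7 with siHNRNPH1, and 0 rose with any, except that 2 rose and 4 fell with siSF3B1 under the median scaling alone. In these comparisons 46.1%, 61.2% and 43.7% of all measured genes were called in either direction for siSUPT6H, siSF3B1 and siHNRNPH1. HOXD10 fell by 0.71 with siSUPT6H and by 1.02 with siSF3B1, HOXD8 fell by 0.54 with siSUPT6H, MTX2, a neighbour that encodes a mitochondrial protein, fell by 0.85 with siSF3B1, and HOXD3 fell by 0.99 with siHNRNPH1. The median change over the 8 genes was -0.39, -0.27 and -0.71 for the 3 targets, against 0.03, -0.06 and -0.02 over all genes.

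**Figure D2:**
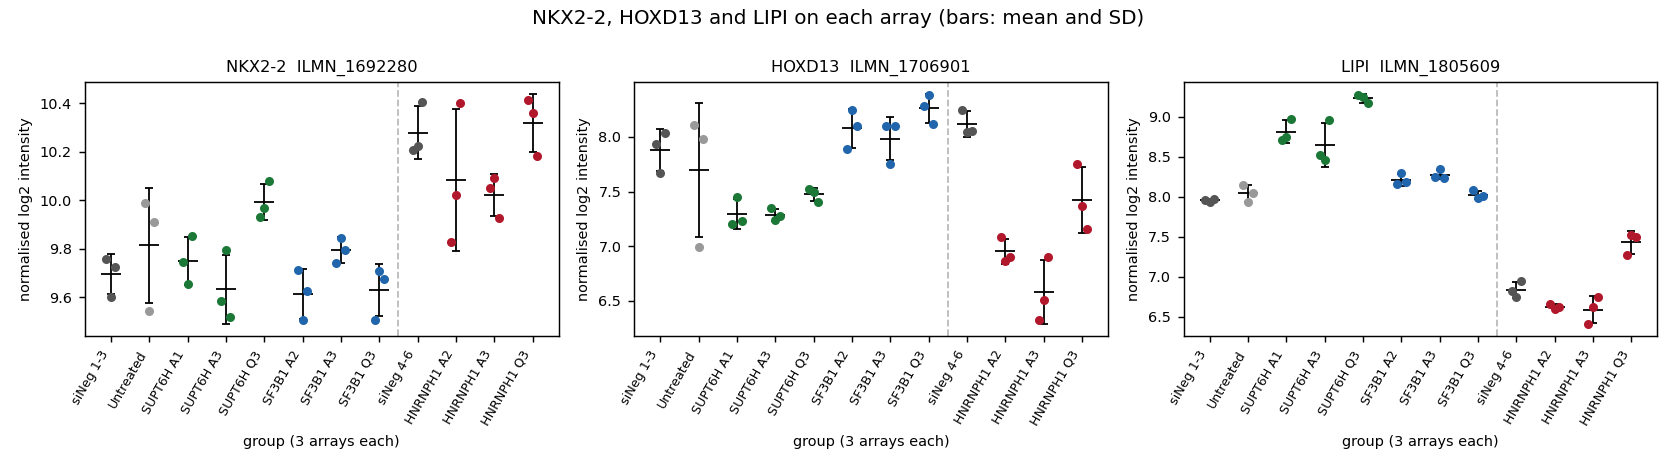
Normalised log2 intensity of NKX2-2, HOXD13 and LIPI on every array, with points for single arrays, bars for mean and SD, and a dashed line between control set 1 (left) and control set 2 (right). NKX2-2 stays between 9.50 and 10.41 on all arrays, HOXD13 is lowest with siHNRNPH1 A3, and LIPI is highest with siSUPT6H Q3.

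The Polycomb genes split: EZH2 fell with every target on its 3 probes, whereas PHF19 fell on 1 of 3 probes with siSUPT6H, rose on all 3 with siHNRNPH1 and moved both ways with siSF3B1. With siSF3B1, 1 of the 3 EZH2 probes kept its call with the siRNA as a random block. EZH2 is the catalytic subunit of the Polycomb repressive complex PRC2. Its probe for NM_004456, ILMN_1652913, read 8.28, 8.48 and 8.92 on siNeg arrays 1 to 3, 7.39 to 7.73 (median 7.59) with siSUPT6H and 7.14 to 7.45 (median 7.20) with siSF3B1. It read 7.44, 7.57 and 7.70 on siNeg arrays 4 to 6 and 6.07 to 6.97 (median 6.70) with siHNRNPH1. No siRNA array overlapped its controls. The changes were -0.99 with siSUPT6H (SE 0.12, adjusted p = 2.26e-09), -1.32 with siSF3B1 (adjusted p = 1.81e-13) and -0.90 with siHNRNPH1 (adjusted p = 2.71e-08), or 50.5%, 40.0% and 53.6% of control. The Untreated arrays read 7.79, 8.10 and 8.26, above all 9 siSUPT6H arrays and below siNeg arrays 1 to 3. Against the other siNeg arrays, 4 to 6, the change with siSUPT6H was 0.0022.

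The 2 EZH2 probes for NM_152998 gave smaller falls with siSF3B1. ILMN_1708105 read 7.37, 7.39 and 7.47 on siNeg arrays 1 to 3, 6.39 to 6.89 with siSUPT6H and 6.94 to 7.44 with siSF3B1, and 8 of the 9 siSF3B1 arrays were below siNeg. It read 7.59, 7.70 and 7.72 on siNeg arrays 4 to 6 and 6.42 to 7.14 with siHNRNPH1. Its changes were -0.70, -0.31 (adjusted p = 0.00753) and -0.91 for siSUPT6H, siSF3B1 and siHNRNPH1. ILMN_2364529 changed by -0.81, -0.35 (adjusted p = 0.00293) and -0.70, with every siRNA array below its siNeg arrays. The siSF3B1 call of this last probe was lost without siNeg replicate 1 and against Untreated, where its change was -0.09. With the siRNA as a random block the siSF3B1 call was lost on both, at adjusted p = 0.188 for ILMN_1708105 and 0.127 for ILMN_2364529. The first probe fell further than the mean of the other pair with siSF3B1, by -0.99 (exact permutation test over 9 and 3 arrays, two-sided, p = 0.00455, the smallest the design allows, 0.00909 after adjustment over 12 such tests chosen after the values were seen). With siSUPT6H and siHNRNPH1 that difference was -0.23 (exact p = 0.0773) and -0.09 (exact p = 0.605). Here and below, this permutation test takes arrays of different siRNAs as exchangeable.

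**Figure D3:**
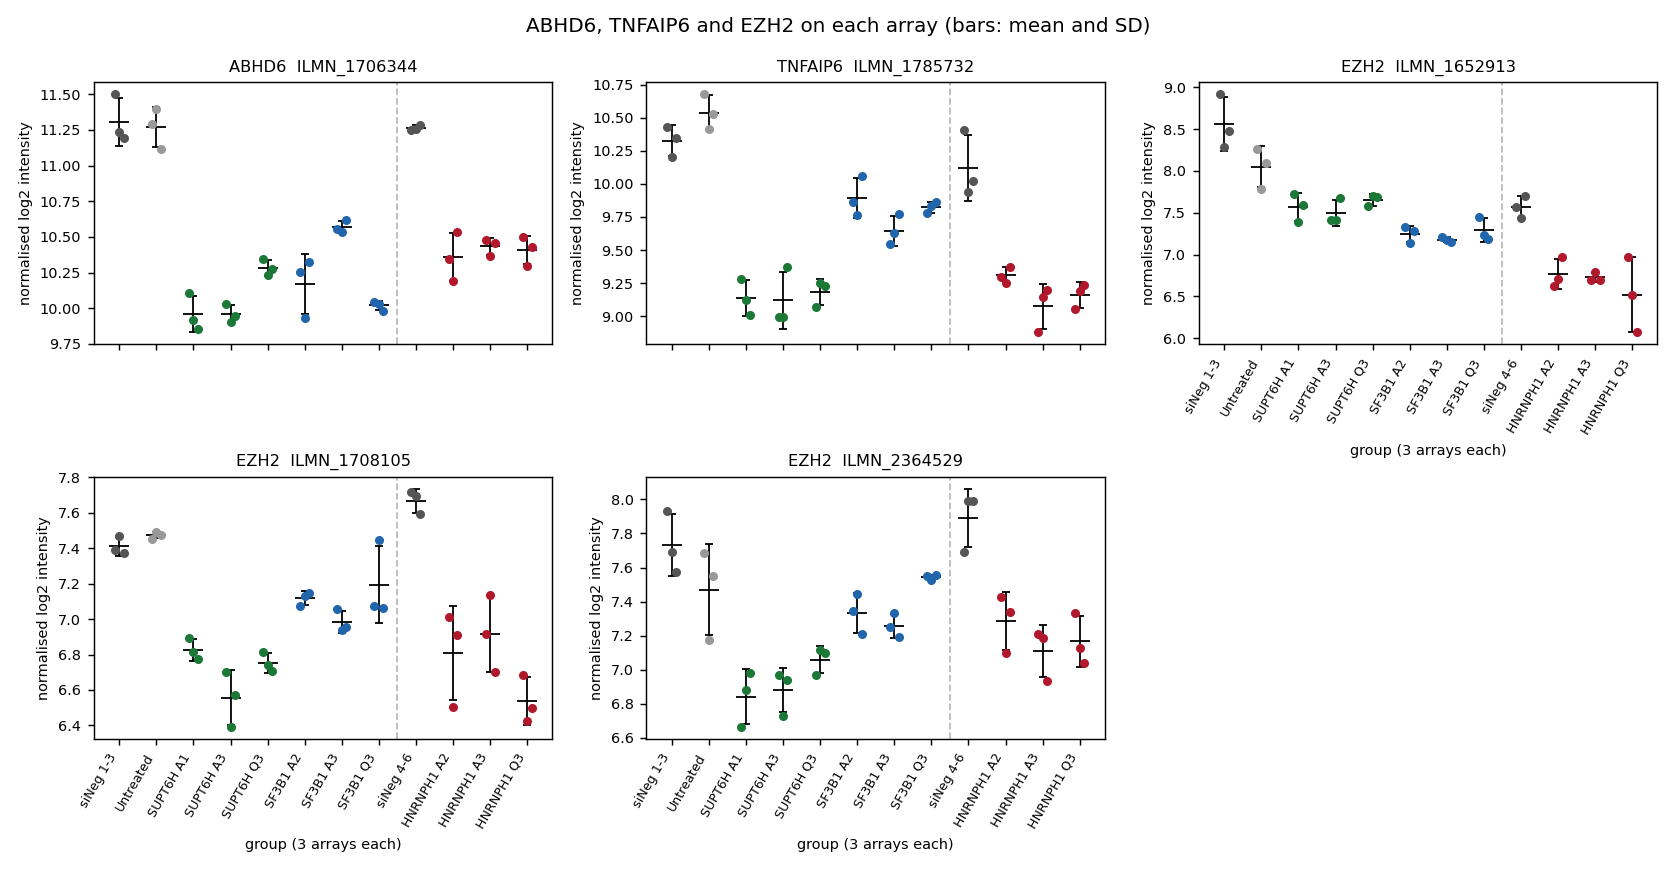
Normalised log2 intensity of ABHD6, TNFAIP6 and the 3 EZH2 probes on every array, with points for single arrays, bars for mean and SD, and a dashed line between control set 1 (left) and control set 2 (right). In each panel the siRNA arrays lie below the siNeg arrays on their own side of the line, except for 1 siSF3B1 Q3 array of EZH2 ILMN_1708105.

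PHF19, a reader of methylated histone H3 that brings PRC2 to chromatin, is made in a long and a short form, and its probes are annotated to different transcripts. ILMN_1713249, for NM_015651, read 7.79, 7.88 and 8.04 on siNeg arrays 1 to 3, 7.01 to 7.86 (median 7.48) with siSUPT6H and 6.07 to 6.55 (median 6.28) with siSF3B1. It read 8.26, 8.40 and 8.51 on siNeg arrays 4 to 6 and 9.16 to 9.65 (median 9.34) with siHNRNPH1. The siSF3B1 arrays were all far below siNeg, the siHNRNPH1 arrays were all above it, and 8 of 9 siSUPT6H arrays were below it. The changes were -0.48 with siSUPT6H (SE 0.10, adjusted p = 9.66e-05), -1.61 with siSF3B1 (adjusted p = 2.58e-19) and 0.99 with siHNRNPH1 (adjusted p = 9.80e-12). These are 71.8%, 32.7% and 199% of control, and the siSF3B1 and siHNRNPH1 changes differed by -2.61 (adjusted p = 5.85e-21). The siSUPT6H change shrank to -0.06 against Untreated, and its call was lost with the siRNA as a random block (adjusted p = 0.0597).

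The probes for NM_001009936 moved the other way with siSF3B1. ILMN_1745420 read 6.65, 6.84 and 6.97 on siNeg arrays 1 to 3, 6.57 to 7.13 with siSUPT6H and 7.40 to 8.15 with siSF3B1. With siHNRNPH1 it read 7.76 to 8.97, over 6.99, 7.14 and 7.17 on siNeg arrays 4 to 6. The siSF3B1 and siHNRNPH1 arrays were all above their controls and the siSUPT6H arrays overlapped theirs. Its changes were 0.01 (adjusted p = 0.951), 0.94 (adjusted p = 7.28e-13) and 1.31 (adjusted p = 2.76e-17) for siSUPT6H, siSF3B1 and siHNRNPH1. ILMN_1756676 changed by 0.07 (adjusted p = 0.647), 1.19 and 1.27. Set against the mean of these 2 probes, ILMN_1713249 was lower with siSF3B1 by -2.68 and with siSUPT6H by -0.52 (exact permutation p = 0.00455 for both, 0.00909 adjusted), and with siHNRNPH1 by -0.30 (exact p = 0.195). The siSUPT6H siRNAs differed on ILMN_1713249 and ILMN_1745420 (moderated F test, adjusted p = 0.011 and 0.0047), not on ILMN_1756676 (0.187). The siSF3B1 siRNAs differed on ILMN_1745420 and ILMN_1756676 (moderated F test, adjusted p = 0.038 and 0.0095), not on ILMN_1713249 (0.66). The permutation p-values, which take these arrays as exchangeable, are limited by that. The siRNAs against HNRNPH1 gave 1.78, 1.44 and 0.71 on ILMN_1745420, which differed from each other (F test, adjusted p = 1.34e-10). The probes' sequences were not used here, so which exons they read cannot be stated.

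**Figure D4:**
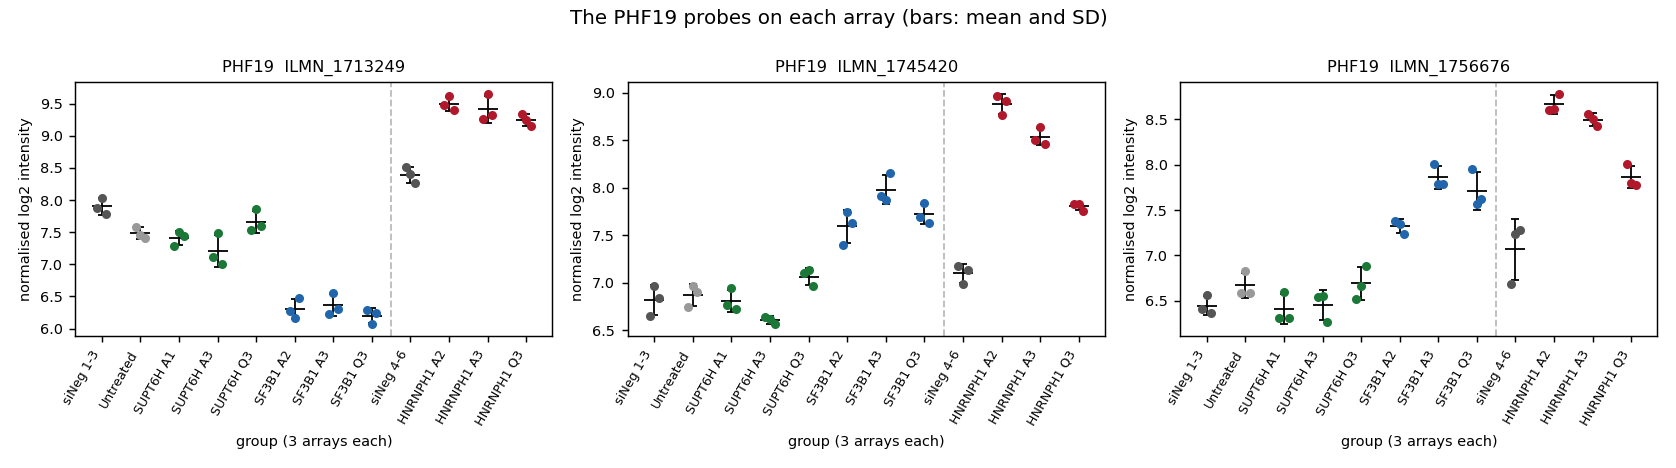
Normalised log2 intensity of the 3 PHF19 probes on every array, with points for single arrays, bars for mean and SD, and a dashed line between control set 1 (left) and control set 2 (right). With siSF3B1 ILMN_1713249 sits below the siNeg arrays and the other 2 probes above them, while with siHNRNPH1 all 3 probes sit above.

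Of 14 PRC2 genes 12 were measured, EZH2 and PHF19 among them, each by its brightest probe. With siSUPT6H 3 rose and 4 fell, with siSF3B1 4 rose and 5 fell, and with siHNRNPH1 4 rose and 2 fell, where 46.1%, 61.2% and 43.7% of all measured genes were called. JARID2, which helps to recruit PRC2, rose by 1.04 with siSUPT6H, as did LCOR by 0.71. EED, a core subunit, rose by 0.76 with siSF3B1 and MTF2, a relative of PHF19, by 0.69. RBBP4, a histone-binding subunit, rose by 0.38 with siHNRNPH1 and EPOP fell by 0.21. The median change over the 12 genes was -0.03, 0.11 and 0.23 for the 3 targets.

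Of the membrane and signalling genes, PRKCB fell on all 5 probes with siSF3B1, and STEAP1 rose with siSF3B1. STEAP1 is a metalloreductase-like protein of the plasma membrane, used as a surface marker of Ewing sarcoma. Its probe ILMN_1705629 read 6.50, 6.54 and 6.57 on siNeg arrays 1 to 3, 6.58 to 7.15 (median 6.72) with siSUPT6H and 7.39 to 7.99 (median 7.76) with siSF3B1. All arrays of both targets were above siNeg. On siNeg arrays 4 to 6 it read 6.25, 6.64 and 6.66 and with siHNRNPH1 6.04 to 6.78 (median 6.34), which overlapped. The changes were 0.29 with siSUPT6H (SE 0.12, adjusted p = 0.0457), 1.19 with siSF3B1 (adjusted p = 1.42e-12) and -0.13 with siHNRNPH1 (adjusted p = 0.437). The siSUPT6H call was lost in 12 of 26 alternative settings.

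The brighter of its probes changed less. ILMN_1733094 read 8.35, 8.36 and 8.37 on siNeg arrays 1 to 3, 8.37 to 8.99 with siSUPT6H and 8.52 to 8.95 with siSF3B1, and 8.17 to 8.73 with siHNRNPH1 over 8.44, 8.60 and 8.65 on siNeg arrays 4 to 6. Its changes were 0.29 (adjusted p = 0.0123), 0.38 (adjusted p = 0.000611) and -0.20 (adjusted p = 0.0867), and the siSUPT6H call was lost without siRNA Q3, at 0.19. With the siRNA as a random block the siSUPT6H and siSF3B1 calls were lost (adjusted p = 0.290 and 0.0768), as they were against siNeg arrays 4 to 6, at 0.086 and 0.18. The siHNRNPH1 change was called under the median scaling, at -0.30 (adjusted p = 0.0111), and without siRNA A2, at -0.26 (adjusted p = 0.0363). The rise with siSF3B1 was 0.81 larger on ILMN_1705629 than on ILMN_1733094 (exact permutation p = 0.00455, 0.00909 adjusted), although both are annotated to NM_012449. The third kept probe, ILMN_1772260, was detected on 8 of 9 siSF3B1 arrays and on 0 of 3 of their siNeg arrays. It was at least 1.64-fold higher with siSF3B1 (adjusted p = 1.47e-06), taking the lowest detected signal of the arrays as the bound. Of 5 STEAP family genes 3 were measured, and STEAP3, an endosomal ferrireductase, rose by 0.65, 0.70 and 0.44 with the 3 targets, while STEAP2 fell by 0.72 with siHNRNPH1.

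PRKCB encodes protein kinase C beta, which phosphorylates histone H3 and other substrates and is known for supporting Ewing sarcoma cell survival. Its probe ILMN_1806908, for NM_002738, read 11.20, 11.31 and 11.38 on siNeg arrays 1 to 3, 11.07 to 11.70 (median 11.36) with siSUPT6H and 9.90 to 10.43 (median 9.99) with siSF3B1. On siNeg arrays 4 to 6 it read 11.55, 11.61 and 11.63, and with siHNRNPH1 10.88 to 11.47 (median 11.17). All siSF3B1 and siHNRNPH1 arrays were below their controls and the siSUPT6H arrays overlapped theirs. The changes were 0.08 with siSUPT6H (adjusted p = 0.401), -1.20 with siSF3B1 (SE 0.07, adjusted p = 8.27e-20) and -0.41 with siHNRNPH1 (adjusted p = 7.64e-06), or 106%, 43.5% and 75.4% of control. The siHNRNPH1 call was lost against siNeg arrays 1 to 3, at -0.11 (adjusted p = 0.213), and with the siRNA as a random block (adjusted p = 0.0506), as were those of ILMN_1713603 and ILMN_3222974 with the block (both adjusted p = 0.138). The siSUPT6H and siSF3B1 changes differed by 1.28 (adjusted p = 1.52e-27).

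The other 4 PRKCB probes changed by -1.0, -0.73, -0.83 and -0.53 with siSF3B1, all called, and over the 10 pairs of PRKCB probes Pearson's r across the 36 arrays, each as a difference from its siNeg mean, was 0.73 to 0.93. With siHNRNPH1 ILMN_1713603 changed by -0.41 and ILMN_3222974 by -0.49, both called. ILMN_1716563 changed by 0.02 (adjusted p = 0.881) and ILMN_3299520 by -0.15 (adjusted p = 0.251), and neither was called. With siSUPT6H the PRKCB probes parted as well. ILMN_3299520, for NM_212535, read 9.36, 9.42 and 9.60 on siNeg arrays 1 to 3 and 9.65 to 10.60 (median 9.91) with siSUPT6H, with every array above siNeg. It rose by 0.62 (SE 0.10, adjusted p = 2.05e-06), with 0.42, 0.37 and 1.06 for siRNAs A1, A3 and Q3. ILMN_1716563 rose by 0.33 (adjusted p = 0.00316) through Q3, and without it the change was 0.14 and not called. The difference between ILMN_1806908 and ILMN_3299520 was lower than in siNeg by -0.53 with siSUPT6H and by -0.67 with siSF3B1 (exact permutation p = 0.00455 for both, 0.00909 adjusted). This pair of the 10 was picked after the values were seen, a choice that the adjustment does not cover. The permutation also takes arrays as exchangeable, while the siSUPT6H siRNAs differed on both probes (moderated F test, adjusted p = 5.63e-05 and 1.73e-05). The siSF3B1 siRNAs differed on both as well (moderated F test, adjusted p = 0.00728 and 0.0216). The permutation p-values therefore describe a chosen pair only. ILMN_1713603 with siSF3B1 lost its call against the siNeg arrays 4 to 6, at 0.09, the arrays in which its level was lower by -1.09. Of 9 protein kinase C genes 7 were measured, and 0 rose with any target, except 1 with siSF3B1 under the median scaling alone. With siSF3B1 3 fell, among them PRKCI, an atypical isoform, by 0.79. Of all measured genes 46.1%, 61.2% and 43.7% were called with siSUPT6H, siSF3B1 and siHNRNPH1.

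**Figure D5:**
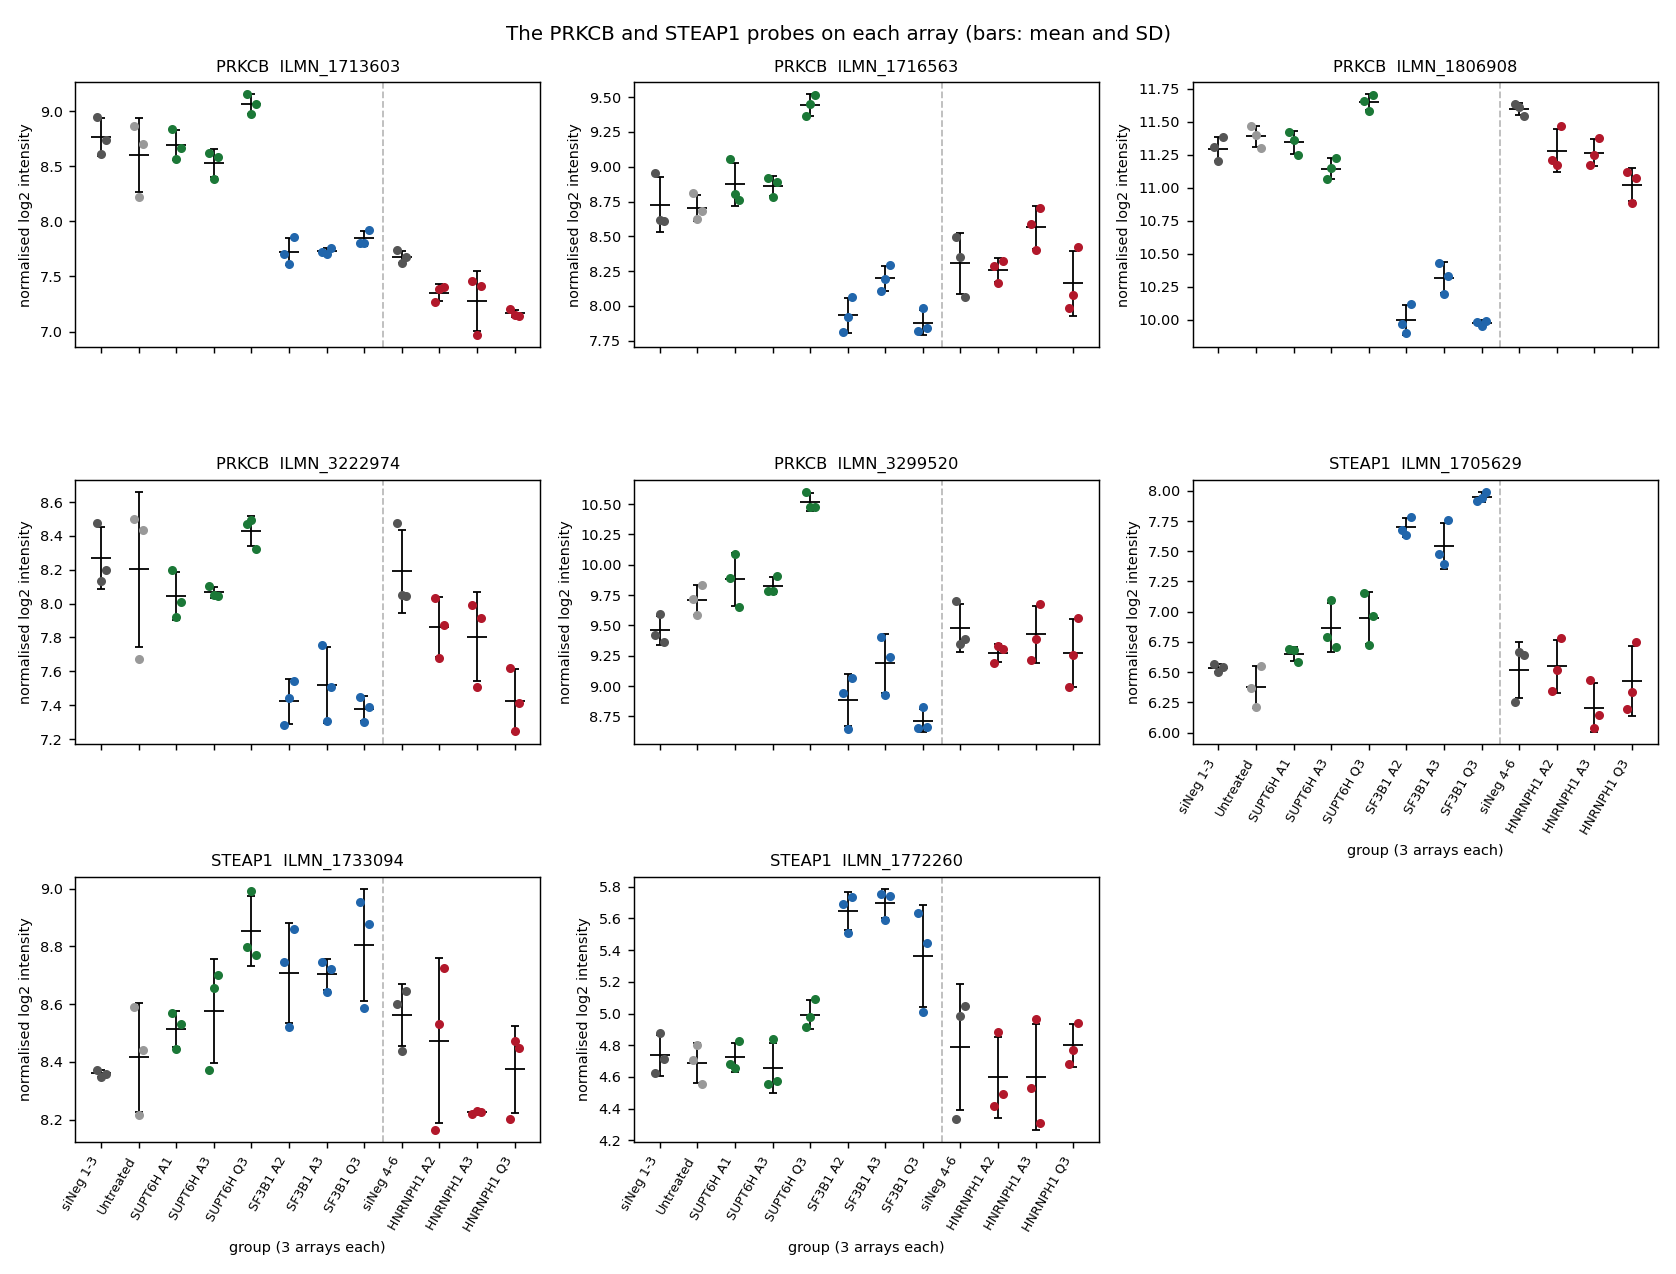
Normalised log2 intensity of PRKCB and STEAP1 probes on every array, with points for single arrays, bars for mean and SD, and a dashed line between control set 1 (left) and control set 2 (right). PRKCB is lowest with the siSF3B1 siRNAs relative to its siNeg arrays, and STEAP1 ILMN_1705629 is highest with them.

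The lipase genes moved in opposite directions with siSUPT6H. LIPI, a membrane-associated phosphatidic acid phospholipase known as a cancer and testis antigen of Ewing sarcoma, read 7.94, 7.96 and 7.97 on siNeg arrays 1 to 3 and 8.46 to 9.28 (median 8.96) with siSUPT6H. All 9 arrays were above siNeg, and the change was 0.94 (SE 0.09, adjusted p = 1.56e-12), or 192% of control, with 0.86, 0.69 and 1.28 for A1, A3 and Q3. With siSF3B1 it read 7.98 to 8.35 (median 8.18), a change of 0.22 (adjusted p = 0.0361) that lost its call in 11 of 27 alternative settings. On siNeg arrays 4 to 6 LIPI read 6.75, 6.82 and 6.95, and with siHNRNPH1 6.41 to 7.53 (median 6.66). The mean change with siHNRNPH1 was 0.05 (adjusted p = 0.737), and its siRNAs gave -0.21, -0.25 and 0.59, of which only the last, Q3, was called (F test among them, adjusted p = 6.32e-09). The siSUPT6H change exceeded that of siSF3B1 by 0.73 and that of siHNRNPH1 by 0.90, both called, the latter not with the random block (adjusted p = 0.0743).

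ABHD6, a monoacylglycerol lipase that breaks down an endocannabinoid, fell with all 9 siRNAs. It read 11.19, 11.23 and 11.50 on siNeg arrays 1 to 3, 9.86 to 10.34 (median 10.03) with siSUPT6H and 9.93 to 10.62 (median 10.25) with siSF3B1. It read 11.25, 11.26 and 11.28 on siNeg arrays 4 to 6 and 10.19 to 10.54 (median 10.43) with siHNRNPH1. The 27 siRNA arrays all lay below all siNeg and Untreated arrays, of which the latter read 11.12, 11.29 and 11.40. The changes were -1.24 with siSUPT6H (SE 0.08, adjusted p = 1.18e-18), -1.05 with siSF3B1 (adjusted p = 1.70e-16) and -0.86 with siHNRNPH1 (adjusted p = 3.88e-13), or 42.3%, 48.1% and 55% of control. They kept their call in 27 of 27 alternative settings for each target. The siSUPT6H fall was larger than that with siSF3B1 by -0.19 (adjusted p = 0.00287) and than that with siHNRNPH1 by -0.38 (adjusted p = 0.00908), and both differences lost their call with the random block (adjusted p = 0.151 and 0.486). The siSF3B1 siRNAs gave -1.14, -0.74 and -1.29, which differed (F test, adjusted p = 0.000141), while those against HNRNPH1 gave -0.91, -0.83 and -0.85 (adjusted p = 0.819).

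TNFAIP6, a secreted hyaluronan-binding protein that is induced in inflammation, also fell with all 3 targets. It read 10.20, 10.34 and 10.43 on siNeg arrays 1 to 3, 9.0 to 9.37 (median 9.12) with siSUPT6H and 9.54 to 10.06 (median 9.78) with siSF3B1. On siNeg arrays 4 to 6 it read 9.94, 10.02 and 10.40, and with siHNRNPH1 8.88 to 9.37 (median 9.20). Every siRNA array was below its own controls. The changes were -1.18 (SE 0.09, adjusted p = 8.74e-16), -0.54 (adjusted p = 9.91e-07) and -0.94 (adjusted p = 1.72e-12) for siSUPT6H, siSF3B1 and siHNRNPH1, or 44.1%, 68.8% and 52.1% of control. The siSUPT6H fall was larger than the siSF3B1 fall by -0.64 (adjusted p = 7.40e-13). The siSF3B1 change was -0.09 and not called (adjusted p = 0.372) when arrays were scaled by their median alone.

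Of 14 genes of the hyaluronan matrix, which holds TNFAIP6, 6 were measured, TNFAIP6 among them. With siSUPT6H 2 rose and 3 fell, with siSF3B1 0 rose and 4 fell, and with siHNRNPH1 2 rose and 2 fell. Under the median scaling alone 3 fell with siSF3B1. Of all measured genes 46.1%, 61.2% and 43.7% were called with siSUPT6H, siSF3B1 and siHNRNPH1. HAS3, a hyaluronan synthase, rose by 0.61 with siSUPT6H and by 1.18 with siHNRNPH1 and fell by 0.68 with siSF3B1. HMMR, a hyaluronan-binding protein of the mitotic spindle, fell by 0.69 with siSUPT6H and by 0.64 with siHNRNPH1. HYAL3 rose by 0.39 with siSUPT6H and fell by 0.61 with siSF3B1, and CD44 rose by 0.69 with siHNRNPH1.

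The probes of ABHD6, TNFAIP6 and EZH2 were also the members with every array below siNeg for all 3 targets, except EZH2 ILMN_1708105. That made 4 probes, where 3.1% of all probes did so. Their promoters are printed because these are the members that moved together. Each run is 300 bases long and spans a gene start in GRCh38.p14, mostly its upstream side, from RefSeq, which gave EZH2 2 starts. GGAA, the core of the ETS motif, and TTCC, its reverse complement, are in capitals.
ABHD6, chr3:58237542-58237841, plus strand: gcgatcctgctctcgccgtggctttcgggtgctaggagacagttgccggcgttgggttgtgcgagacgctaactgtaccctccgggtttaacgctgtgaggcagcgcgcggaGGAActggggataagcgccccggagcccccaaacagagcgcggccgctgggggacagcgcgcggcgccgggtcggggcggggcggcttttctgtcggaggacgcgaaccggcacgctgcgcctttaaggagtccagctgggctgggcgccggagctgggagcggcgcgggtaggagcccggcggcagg
TNFAIP6, chr2:151357342-151357641, plus strand: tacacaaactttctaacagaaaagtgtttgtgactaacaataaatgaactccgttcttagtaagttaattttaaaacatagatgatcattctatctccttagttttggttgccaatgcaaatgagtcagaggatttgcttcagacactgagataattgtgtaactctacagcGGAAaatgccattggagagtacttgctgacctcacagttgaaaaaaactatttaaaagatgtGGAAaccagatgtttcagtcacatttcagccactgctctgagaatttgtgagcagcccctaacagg
EZH2, chr7:148884242-148884541, minus strand: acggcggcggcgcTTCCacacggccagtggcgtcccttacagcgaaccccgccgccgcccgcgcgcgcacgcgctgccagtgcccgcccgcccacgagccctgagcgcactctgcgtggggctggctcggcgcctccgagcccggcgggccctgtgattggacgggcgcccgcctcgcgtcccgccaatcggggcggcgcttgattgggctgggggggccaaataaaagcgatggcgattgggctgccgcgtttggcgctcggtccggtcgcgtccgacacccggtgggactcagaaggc
EZH2, chr7:148883436-148883735, minus strand: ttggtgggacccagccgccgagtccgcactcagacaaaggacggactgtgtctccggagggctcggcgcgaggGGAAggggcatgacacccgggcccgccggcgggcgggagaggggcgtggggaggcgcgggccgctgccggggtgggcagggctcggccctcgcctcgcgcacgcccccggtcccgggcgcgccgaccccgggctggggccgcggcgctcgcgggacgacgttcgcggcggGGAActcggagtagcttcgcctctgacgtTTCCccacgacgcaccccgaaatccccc

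GGAA on either strand was found 1 time in the promoter of ABHD6, 2 times in that of TNFAIP6, and 1 and 3 times in those of EZH2. It was in 95.5% of the 35116 promoters of the same length, with a median of 3 matches. Among all members, with 14 promoters, NR0B1 had 5 matches, a count that 28.6% of promoters reached or passed, STEAP1 and 1 of 2 LIPI promoters had 4, and PRKCB and 1 of 2 NKX2-2 promoters had 0. GGAAGGAA, which overlaps GGAA, was in 3.67% of promoters and CCGGAAGT, which holds GGAA, in 4.14%, and neither was in a member promoter. These matches describe letters in a window, and the arrays did not measure binding.

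EWSR1 and FLI1, the partners of the fusion, had probes of their own, and whether these read the fusion transcript was not tested. EWSR1 encodes an RNA-binding protein and FLI1 an ETS factor of blood and vessel development. The brightest EWSR1 probe, ILMN_1727041, changed by -0.44 with siSUPT6H (adjusted p = 0.000112), by -1.04 with siSF3B1 (adjusted p = 1.10e-13) and by -0.20 with siHNRNPH1 (adjusted p = 0.0952). The other 2 EWSR1 probes fell with siSUPT6H and siSF3B1 as well, and with siHNRNPH1 ILMN_1697735 fell by 0.26 (adjusted p = 0.0145) and ILMN_2413251 changed by 0.11 (adjusted p = 0.470). FLI1 changed by -0.01 (adjusted p = 0.961), 0.98 (adjusted p = 1.79e-08) and -0.31 (adjusted p = 0.0638), and was detected on 4 of 9 siHNRNPH1 arrays.

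A wider list of 40 activated targets, with no member in it, had 32 measured genes. With siSUPT6H 8 rose and 8 fell, with siSF3B1 11 rose and 8 fell (18 rose and 8 fell under the median scaling alone), and with siHNRNPH1 1 rose and 16 fell, where 46.1%, 61.2% and 43.7% of all measured genes were called. POU3F1, a neural POU factor, rose by 1.03 with siSUPT6H, as did KIT, a receptor tyrosine kinase, by 0.93, and the mitotic kinase genes AURKA and AURKB fell by 1.31 and 1.20. FEZF1, a forebrain zinc finger factor, rose by 1.19 with siSF3B1 and CCK, a peptide hormone, by 1.05, while STYXL1 fell by 1.35 and HMCN1, a matrix protein, by 1.14. With siHNRNPH1 KIT rose by 0.30, ADGRG2, an adhesion receptor, fell by 0.94 and AURKA fell by 0.63. The median change over the 32 genes was -0.24 with siHNRNPH1, where that over all genes was -0.02. Of 28 genes known as repressed by the fusion 23 were measured, and 18 rose and 0 fell with siHNRNPH1, where 43.7% of all genes were called, with a median of 1.45, among them IGFBP3 by 4.04 and COL1A1 by 3.67. With siSUPT6H 10 rose and 9 fell, where 46.1% of all genes were called, among them the cell cycle inhibitor CDKN1A, up by 2.18, and the Wnt inhibitor DKK1, down by 1.53. With siSF3B1 6 rose and 7 fell (10 and 6 under the median scaling alone), where 61.2% were called, and IGFBP3 was among those that fell, by 1.73.

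Genes of cell division moved beside the members. Of 23 measured, 18 fell with siSUPT6H, among them CENPA by 1.39 and CCNB2 by 1.33, and 2 rose, E2F1 by 0.47 and PCNA by 0.35. With siHNRNPH1 13 fell and PCNA alone rose, by 0.28. With siSF3B1 2 fell, TOP2A among them by 1.20, and 10 rose, PLK1 among them by 0.85 (19 rose under the median scaling alone). Of all measured genes 46.1%, 43.7% and 61.2% were called with siSUPT6H, siHNRNPH1 and siSF3B1. The part of cell division in the members' changes was not tested. The genes whose levels were most like a member's over the 36 arrays, after the siNeg mean of the same control set was taken away, were AARS1, RFC4 and TOP2A for ABHD6 (Pearson's r 0.96, 0.95 and 0.93) and NCAPG, EFHD1 and MTHFD2 for TNFAIP6 (0.94, 0.92 and 0.92). For PHF19 ILMN_1713249 they were PARVA, IRF2BP2 and TSPAN18 (0.95, 0.95 and 0.94), and for PRKCB ILMN_1806908 UCKL1, MTOR and TMEM218 (0.96, 0.94 and 0.94). NKX2-2 had no gene above 0.73, which was GLO1. HOXD13 was closest to SINHCAF (0.89), LIPI to CPNE4 (0.90), EZH2 ILMN_1652913 to SNX5 (0.88) and STEAP1 ILMN_1705629 to SBDSP1 (0.94). These coefficients describe arrays that share their siRNA groups and are no test.

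Markers of other cell types rose with some of these changes: CD68 rose by 0.75 with siSF3B1 and by 0.61 with siHNRNPH1, and CD14 by 0.60 with siHNRNPH1. They were the 2 measured of 6 blood genes, while PTPRC, CD3E and HBB were detected on 0 arrays. The summed linear level of the blood markers was 307 to 313 on siNeg arrays 1 to 3 and 370 to 429 with siSF3B1, and 278 to 294 on siNeg arrays 4 to 6 and 291 to 369 with siHNRNPH1. The endothelial marker PECAM1, the 1 measured of 4, was detected on 9 of 9 siSUPT6H arrays and 0 of 3 of their siNeg arrays, and was at least 1.27-fold higher (adjusted p = 1.42e-06). The summed endothelial level was 89.4 to 101 with siSUPT6H and 80.5 to 83.4 on siNeg arrays 1 to 3, and VWF was detected on 0 arrays. The summed level of the muscle markers, of which 0 were measured on enough arrays, was 125 to 143 with siHNRNPH1 and 120 to 124 on siNeg arrays 4 to 6. MYOD1, MYOG, MYH3 and ACTC1 were detected on 0 arrays and DES on 1. That sum is therefore of signals near or below detection and shows no rise of a muscle gene. The summed epithelial levels overlapped siNeg with every target, and the part of these markers in the members' changes was not tested.

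How many member probes differed between targets depended on the pair. Between siSUPT6H and siSF3B1, which share siNeg arrays that cancel, 17 of 19 differences were called, where 69.2% of all probes were. Between siSUPT6H and siHNRNPH1 10 were called, where 24.7% of all probes were, and between siSF3B1 and siHNRNPH1 14, where 46.1% were. With the siRNA as a random block, 16, 3 and 6 of these differences were called. The share of all probes was not counted with the block, so these 3 counts have no background. The siRNAs of a target also differed among themselves in 10 member probes for siSUPT6H, 5 for siSF3B1 and 8 for siHNRNPH1 (moderated F test), where 27.3%, 11.2% and 33.7% of all probes did. With siSUPT6H, Q3 gave the highest value of the 3 siRNAs for every member probe except EZH2 ILMN_1708105. That probe changed by -0.58 with A1 and by -0.66 with Q3. The share of all probes that were highest with Q3 was not counted. Q3 was also the siRNA that lowered SUPT6H least. SUPT6H changed by -1.12 with Q3 and by -1.99 with A3, and was at least 3.89-fold lower with A1. How the members' changes relate to the depth of silencing was not tested. When each siRNA was held to its own call, 3 member probes were called lower with all 9, as were 2.53% of all probes: ABHD6, TNFAIP6 and EZH2 ILMN_1652913.

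Among all probes called with siSF3B1, 46.5% were higher, and 65.8% under the median scaling alone, which moved the median change of all probes from -0.01 to 0.21. For siNeg against Untreated the shares were 41.2% and 27.5%.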

How the data were processed

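Total RNA of TC32 cells was read on 36 Illumina HT-12 bead arrays. The deposited intensities were average bead signals, without background correction or normalization per the file headers. Beside each intensity stood a deposited detection p-value, a multiple of 1/770. The authors' own normalized log2 values were a further table, with GenomeStudio, R 3.0.2 and lumi named in the submitters' processing notes and the method not given in the sources used here. It had 47231 probes, and its 24 and 12 arrays with medians of 6.533 and 6.44 gave the control sets 1 and 2. It was used as an alternative.

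The intensities were background-corrected and quantile-normalized with neqc of limma 3.58.1 (offset 16) in R 4.3.3. The offset understates changes of dim probes. Probes with a detection p below 0.01 on 3 or more arrays were kept. Of 47323 probes 30113 had 1 symbol, 8 several and 17202 none, and the last 2 kinds were named in no result. Between 13106 and 16788 probes were detected per array, arrays of a group correlated at 0.988 to 0.995, and their number limits the precision.

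One limma model with 12 groups (siNeg as 2 sets) was fitted to all arrays with an intensity trend, with 24 residual degrees of freedom. Tests were two-sided with Benjamini-Hochberg adjustment over all kept probes. The brightest probe stood for a gene in gene lists. The steps were tested on simulated data. Alternatives covered background, scaling, filter, control arrays, probe choice, blocks, and single arrays or siRNAs left out.

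The members and gene lists were chosen with earlier results of these data known. Named genes were all members, the targeted genes, EWSR1 and FLI1, from each list the 2 largest rises and falls among called genes, of which those described are named, and the 3 genes most like each member by Pearson's r. GGAA, GGAAGGAA and CCGGAAGT were searched on both strands in RefSeq promoters of GRCh38.p14, where all 10 members matched.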

Additional observations from a re-analysis of the deposited data

Results flagged for a closer look

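ABHD6 in the 6 siNeg arrays had 1 array, at 11.50, apart from the other 5, which read 11.19 to 11.28. Its gap to the nearest array was 0.699 of the whole range, above the limit for 6 values. Chance flags about 1 in 20 groups, and 19 member probes were examined. The siRNA arrays, at 10.62 and below, were under all of them.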

How the results depend on the processing

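Of 6708 values of single members recomputed under the alternatives, 6269 kept their side of the threshold and, where called, their direction. With the direction kept, 214 lost a call and 162 gained one. A further 63 turned direction and were called in the main fit, the alternative or both. Values that turned direction without a call in either were counted among the 6269. Of those 63, 56 came from another choice of control arrays and 7 from median scaling, and beyond the control sets' own difference the cause was not tested. ABHD6 kept its calls with every target in all 27 alternatives run.

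With scaling by the median alone, siSF3B1 gave 0.41 for NKX2-2 (A2 and Q3 0.36 each), A2 gave 0.050 for TNFAIP6, siSUPT6H minus siSF3B1 gave -0.34 for NKX2-2, and siSF3B1 minus siHNRNPH1 gave 0.41 for ABHD6 and 0.043 for PRKCB ILMN_3299520. TNFAIP6 with siSF3B1 lost its call, at -0.09.

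Against all 6 siNeg arrays, siSUPT6H gave -0.19 for NKX2-2 (A1 -0.24), -0.24 for PHF19 ILMN_1756676 (A3 -0.30) and 0.54 for PRKCB ILMN_1713603 (A1 0.47, A3 0.31). siHNRNPH1 gave -0.51 for LIPI and -0.19 for PRKCB ILMN_1716563. There, and likewise against Untreated, siSUPT6H minus siHNRNPH1 gave 0.90 for EZH2 ILMN_1652913 and -0.35 for NKX2-2, and siSF3B1 minus siHNRNPH1 gave 0.57 for EZH2 ILMN_1652913, -0.46 for NKX2-2 and 0.50 for PRKCB ILMN_1713603. Against Untreated, siHNRNPH1 gave -1.16 for LIPI (Q3 -0.61), 0.33 for NKX2-2 (A2 0.27) and -0.38 for PRKCB ILMN_1716563.

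Against the other siNeg set, siSUPT6H gave 0.0022 for EZH2 ILMN_1652913 (Q3 0.082), -0.49 for NKX2-2 (A1 -0.53, Q3 -0.29), -0.27 for PHF19 ILMN_1745420, -0.55 for PHF19 ILMN_1756676 (A3 -0.62, Q3 -0.38), 1.08 for PRKCB ILMN_1713603 (A1 1.01, A3 0.85) and -0.22 for PRKCB ILMN_1806908 (A1 -0.25). siSF3B1 gave 0.087 for PRKCB ILMN_1713603 (A2 0.046, A3 0.050, Q3 0.17), and A3 gave -0.48 for NKX2-2. siHNRNPH1 gave -1.07 for LIPI (Q3 -0.53), 0.45 for NKX2-2 (A2 0.39, A3 0.33) and -0.40 for PRKCB ILMN_1716563. siSUPT6H minus siHNRNPH1 gave 1.89 for EZH2 ILMN_1652913, -0.94 for NKX2-2 and -0.11 for PRKCB ILMN_1806908. siSF3B1 minus siHNRNPH1 gave 1.55 for EZH2 ILMN_1652913, -1.05 for NKX2-2, 1.59 for PRKCB ILMN_1713603 and 0.10 for PRKCB ILMN_1716563.

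Counts of called probes moved by over 1.5 times in these cases. Under the alternatives, differences between targets and between siNeg sets were counted for member probes only. With 1 probe per gene, which tests 9 member genes, 7, 7 and 6 were called for siSUPT6H, siSF3B1 and siHNRNPH1, 5 between siNeg sets, and 7, 6 and 6 for the differences between targets, with 7082 of 11437 genes for siSF3B1. Between siSUPT6H and siHNRNPH1, 16 member probes differed against all 6 siNeg arrays and against Untreated. With the siRNA as a random block (correlation 0.38), 7 member probes were called with siSUPT6H, 3 differed between siSUPT6H and siHNRNPH1 and 6 between siSF3B1 and siHNRNPH1, and 3190, 6637 and 2442 of all probes were called for siSUPT6H, siSF3B1 and siHNRNPH1. For siNeg against Untreated, 1 member probe was called with median scaling, and 0 members and 716 probes without the filter.

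With single arrays left out in turn, member calls were 11 to 12 for siSUPT6H, 15 to 17 for siSF3B1, 12 to 13 for siHNRNPH1, 7 to 9 between siNeg sets and 17 to 17, 8 to 12 and 10 to 14 for the differences between targets. Over all probes they were 6809 to 7902, 10082 to 11197 and 6241 to 7413. For siNeg against Untreated they were 0 to 2 members and 577 to 939 probes, with 577, 694 and 659 without siNeg replicate 1, siNeg replicate 2 and Untreated replicate 2.

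The replicate numbers did not pair the samples: same-numbered arrays deviated together at r of -0.12 to 0.12 over 18 pairs of groups. With the replicate block, 12, 17 and 12 member probes and 8016, 11230 and 7525 of all probes were called, which moved no count by over 1.5 times.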
